A study of Mus musculus with 6 samples.

Results

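The cells described here are cycling thymocytes, 1034 of the 3702 filtered cells (27.9%) of the 2 thymus libraries. They were chosen by their own counts: at least 500 detected genes, at least 1000 RNA molecules counted by unique molecular identifiers (UMIs), at most 20% of UMIs from the mitochondrial genome, and a sum of at least 5 raw UMIs over Top2a, Mki67, Birc5, Ccna2, Cdk1 and Ube2c. The whole series holds 11125 filtered cells of thymus, spleen and B16-OVA tumor. What the rule used (these 6 genes, and any contrast between the chosen cells and the rest) is given as a description, without a test.

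The study compared Pdcd1fl/fl mice without Cre (the control) with Pdcd1fl/fl mice that carry an E8I Cd8a-cre, called Pdcd1 cKO, on a C57BL/6 background, both adult and at baseline, without tumor or immunization. Both groups carry the floxed Pdcd1 allele, and the E8I enhancer of Cd8a limits the Cre to cells that have turned on that enhancer. For each genotype, a magnetic negative-selection kit enriched CD8+ T cells from the thymus of 1 mouse, which became 1 PIPseq v3 library. With 1 library per genotype there were no replicates, so every interval below is a 95% interval of counting error alone and no difference between genotypes was tested.

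In the thymus, proliferation comes in bursts tied to stages of T cell development: early precursors without CD4 and CD8 divide, and cells that have made a functional T cell receptor β chain divide again as they turn on CD4 and CD8. Mature cells with 1 co-receptor are mostly resting before they leave. A dividing cell copies its DNA in S phase, when helicase, polymerase, nucleotide and histone genes are transcribed, and in G2 and mitosis it makes the spindle, kinetochore and cytokinesis proteins that pull the copies apart.

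Pdcd1, the gene deleted in the cKO (its product is the inhibitory receptor PD-1), had more UMIs in the library labelled for its deletion. Over all filtered thymus cells it had 131 UMIs in the library labelled Pdcd1 cKO but 12 UMIs in the library labelled Pdcd1fl/fl. Cycling cells held 7 of the 12 UMIs, 1.82 CPM (counts of the gene per 1000000 UMIs of the pooled cells, the unit of all levels below), and 23 of the 131, 3.13 CPM. In the other thymus cells the levels were 1.97 and 9.15 CPM. Counts from a 3' tag that may lie outside the deleted exons cannot check the deletion, so the libraries are called by their labels, the library labelled Pdcd1fl/fl and the library labelled Pdcd1 cKO, and these counts say nothing of PD-1 protein. Effector genes, which the study describes as raised by the deletion, had a median log2 ratio of 1.24 in the other thymus cells. This is the library labelled Pdcd1 cKO over the other, for 12 of 16 genes. It does not check the labels, since the other cells also differed in make-up. At least 2 UMIs of Cd8a and Cd8b1 together were found in 35.1% (library labelled Pdcd1fl/fl) and 57.4% of them, and at least 2 Ccr7 UMIs in 25.8% and 41.8%. The part of this was not tested. The filtered cells of the 2 libraries shared 0 barcodes.

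Cycling cells made up 474 of 1067 cells (44.4%, exact Clopper-Pearson interval 41.4 to 47.5%) in the library labelled Pdcd1fl/fl, against 560 of 2635 cells (21.3%, 19.7 to 22.9%) in the library labelled Pdcd1 cKO. The shares differed by 23.2 percentage points, a ratio of 2.09. A share also depends on the other cells that were captured. Of these, 208 of 593 (35.1%) and 1191 of 2075 (57.4%) had at least 2 UMIs of Cd8a and Cd8b1 together. The part of this in the difference was not tested. The same rule found 4 of 1478 (0.271%) and 16 of 4928 (0.325%) spleen cells, and 191 of 456 (41.9%) and 258 of 561 (46.0%) tumor cells, in the same order of labels. In cells at the threshold the counts passed smoothly: 58 and 82 cells had a sum of 4, just outside, with median depths of 3810.5 and 5886 UMIs, and 44 and 54 cells had a sum of 5, just inside, with 4930.5 and 5593 UMIs. Median sums of cycling cells were 11 and 13, and the highest were 151 and 145. Among the other cells, 224 (37.8%) and 872 (42.0%) had no UMI of the 6 genes.

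A raw count threshold takes more of the deeply read cells, and depth moved with the share. Cycling cells had a median of 6781.5 and 8656 UMIs, against 3526 and 5053 in the other cells, and medians of 2339 and 2870.5 detected genes, against 1553 and 1766. They held 60.3% and 38.4% of their library's UMIs, 3851495 and 7345038 UMIs. In classes of cells from 1000, 4000, 8000 and 16000 UMIs up, the share of cycling cells was 20.6%, 52.6%, 83.0% and 90.9% in the library labelled Pdcd1fl/fl. In the library labelled Pdcd1 cKO it was 11.9%, 13.8%, 27.4% and 92.8% in the same classes. The libraries therefore differed within the classes below 16000 UMIs and had overlapping intervals above. Those deepest cells, 181 of the 195 in the library labelled Pdcd1 cKO, were 32.3% of its cycling cells and gave 64.1% of their UMIs; the 30 of the library labelled Pdcd1fl/fl gave 19.5%. With each cell thinned at random to 3000 UMIs and at least 2 UMIs of the 6 genes required, 542 of 916 cells (59.2%) and 716 of 2514 cells (28.5%) met the rule. Left out as shallower were 151 and 121 cells, of which 20 and 13 were cycling. A doublet caller (scrublet) called 1 cell, a cycling cell, and 10 cells, of which 4 were cycling. The part of depth in the difference between the libraries was not tested beyond these values.

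**Figure D1:**
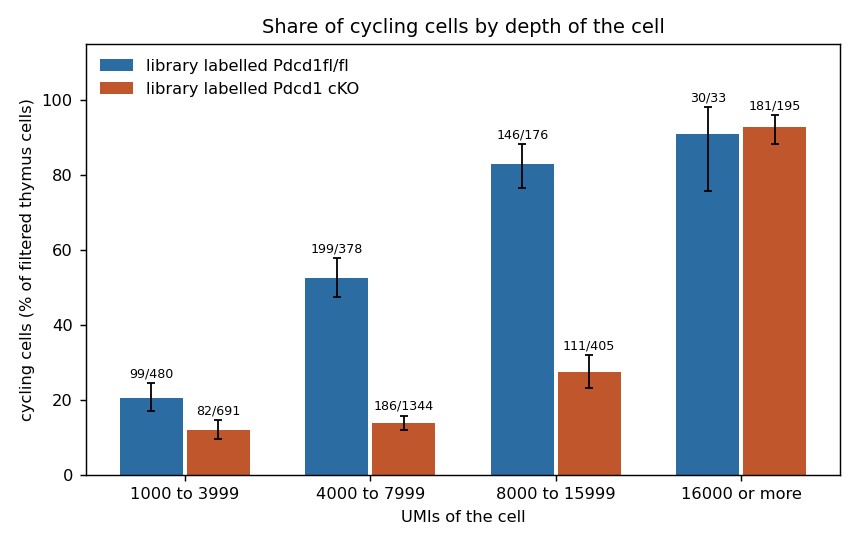
Share of cycling cells (% of filtered thymus cells, vertical axis) by the cell's UMIs (horizontal axis) in each library, with exact 95% intervals and the counts above each bar. The library labelled Pdcd1fl/fl is higher in the 3 classes below 16000 UMIs (83.0% against 27.4% in the class from 8000 UMIs), and at 16000 UMIs or more the shares are 90.9% and 92.8%.

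RNA quality split the cycling cells, and cells of poorer quality were most frequent in those of the library labelled Pdcd1 cKO. There, 163 of 560 cycling cells (29.1%, 25.4 to 33.1%) had more than 10% mitochondrial UMIs, against 193 of its 2075 other cells (9.30%), and in the library labelled Pdcd1fl/fl the counts were 16 of 474 (3.38%) and 20 of 593 (3.37%). These 163 cells were shallow (median 4769 UMIs, against 14646 in the other 397) and poor in ribosomal protein RNA (13.4% of UMIs against 29.6%). Malat1, a nuclear long noncoding RNA, stood at 1885 CPM in them and 522 CPM in the 397. Top2a and Mki67 were also higher in them, 931 against 490 CPM and 382 against 186 CPM, whereas Birc5 (150 against 304 CPM), Ube2c (172 against 398 CPM) and Hmgb2, a chromatin protein (1440 against 2884 CPM), were lower. The 16 such cycling cells of the library labelled Pdcd1fl/fl went the same way, with Malat1 at 2816 against 575 CPM, Top2a at 753 against 504 CPM and Birc5 at 262 against 484 CPM. Other cells with more than 10% were also poor in ribosomal protein RNA (13.5% against 34.5% in the library labelled Pdcd1 cKO). Among cells with at most 10% mitochondrial UMIs, cycling cells were 44.4% and 17.4%, and among the rest 44.4% and 45.8%. How far such cells shape the comparison between libraries was not tested, and values under a stricter cell filter stand beside some of the differences between the libraries.

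All 6 genes of the rule were present in cycling cells of each library, which only restates the choice. Top2a, the topoisomerase that untangles replicated DNA, stood at 508 CPM (486 to 531) and 541 CPM (525 to 558), and had a UMI in 435 and 532 cycling cells. Mki67, whose protein coats mitotic chromosomes, stood at 209 and 209 CPM, in 73.2% and 80.4% of cells. Birc5 (survivin, a subunit of the chromosomal passenger complex) stood at 481 CPM (459 to 503) and 286 CPM (274 to 299), in 89.7% and 74.1% of cells. Of the 6 genes it differed most between the libraries. Ube2c, the ubiquitin-conjugating enzyme of the anaphase-promoting complex, stood at 437 and 372 CPM, in 77.2% and 70.5% of cells. Ccna2 (cyclin A2) was at 128 and 109 CPM and Cdk1, the kinase that starts mitosis, at 151 and 143 CPM. In the other thymus cells the levels of the 6 genes ran from 11.4 to 59.7 CPM (library labelled Pdcd1 cKO) or from 27.2 to 92.6 CPM (library labelled Pdcd1fl/fl). On GRCm39, Top2a lies at chr11:98883769-98915062 (minus strand), Mki67 at chr7:135291513-135318299 (minus), Birc5 at chr11:117740040-117746581 (plus), Ccna2 at chr3:36619014-36626299 (minus), Cdk1 at chr10:69170976-69236595 (minus) and Ube2c at chr2:164611768-164620742 (plus).

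Set against the other cells of their own library, cycling cells had their largest ratios in RNAs of mitosis. The rule itself holds genes of mitosis (Mki67, Birc5, Cdk1 and Ube2c), so this order follows in part from the choice of cells. Of 10380 genes with at least 100 UMIs, 287 (2.76%) were at least 2-fold higher in cycling cells in both libraries and 747 (7.2%) at least 2-fold lower. With at least 20 UMIs, the minimum for members of the lists below, the shares were 2.53% and 8.59%. The rule used this contrast, so nothing is read from these counts. Of the 287 genes, 118 (41.1%) belong to the cell-cycle lists used here, which hold 242 of the 10380 genes. Beside the rule genes Ube2c and Birc5, the largest log2 ratios, ranked by the smaller of the libraries, were those of Mxd3, a Max partner expressed in S phase (3.86 and 3.203), Aurkb, the kinase of the chromosomal passenger complex (3.13 and 3.75), Plk1, the polo kinase that drives mitotic entry (3.34 and 3.08), and Hmmr, a spindle-pole protein (2.95 and 3.42). Next came Pimreg, a mitotic regulator (2.87 and 3.01), Ncapg, a condensin subunit (2.79 and 3.10), Gm10184, named Kpna2rt in GENCODE (2.78 and 3.30), and Depdc1a, a mitotic protein (2.88 and 2.78). The median of all genes was -0.10 and 0.04.

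**Figure D2:**
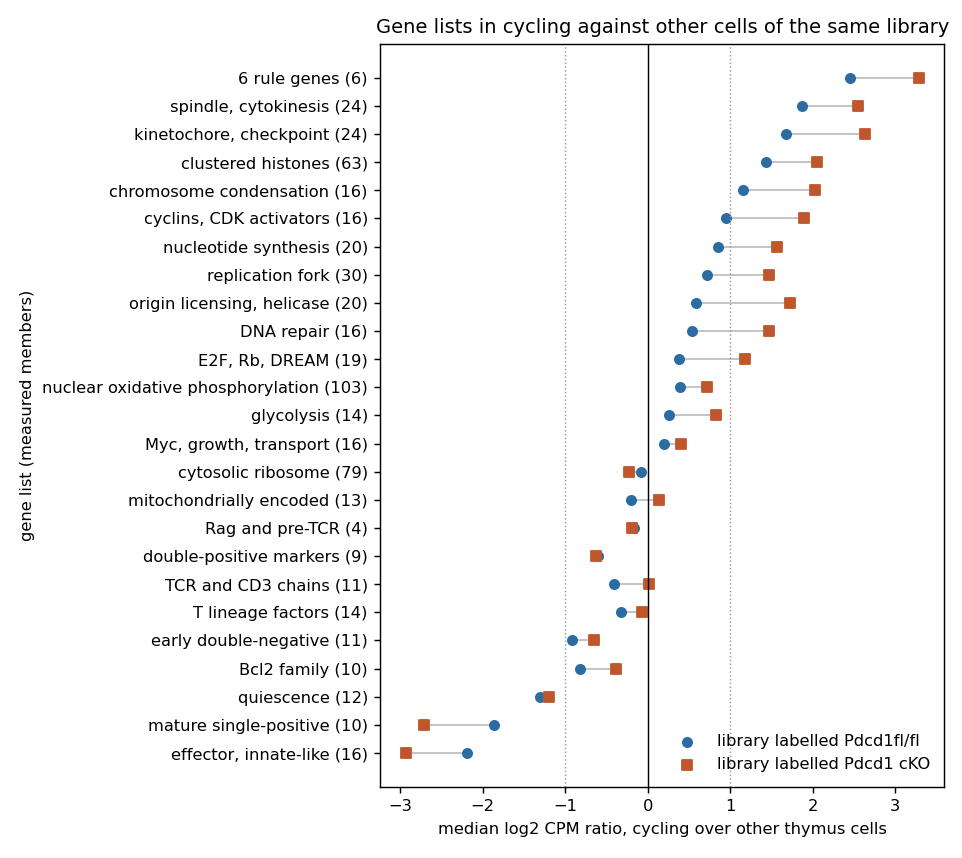
Median log2 CPM ratio of cycling over other thymus cells (horizontal axis) for each gene list (vertical axis, measured members in brackets), 1 point per library, with dotted lines at 2-fold. Spindle genes (1.87 and 2.55) and kinetochore genes (1.67 and 2.64) stand far right, and effector genes (-2.19 and -2.93) far left.

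Spindle and cytokinesis genes were higher almost as a block, 23 of 24 past 2-fold in both libraries. Their median log2 ratio was 1.87 and 2.55. Aurka, the centrosome kinase, stood at 50.4 and 35.5 CPM in cycling cells (log2 2.41 and 1.98 over other cells), and Tpx2, which activates it on the spindle, at 76.9 and 61.8 CPM (2.40 and 2.53). Among the motor proteins, Kif11, which pushes the spindle poles apart, reached 99.2 and 124 CPM (1.67 and 3.03), and Kif20a, a kinesin of the cleavage furrow, 51.9 and 32.3 CPM (2.52 and 2.71). Prc1, which bundles the central spindle, was at 73.5 and 69.4 CPM (2.33 and 2.50). Nusap1, a microtubule-binding protein of the spindle, was the most abundant of the list at 217 and 186 CPM (1.49 and 2.45). The exception was Ckap5, a microtubule polymerase that resting cells also use, at 0.93 and 1.37.

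Kinetochore and checkpoint genes showed the same picture, again with 23 of 24 past 2-fold in both libraries. Spc24, a subunit of the Ndc80 complex that grips microtubules, was the most abundant, 316 and 187 CPM (log2 1.74 and 2.88). Nuf2, its partner in the same complex, had 1.98 and 3.32, and Cenpf, a large kinetochore protein of G2 and mitosis, 2.20 and 3.13. Of the checkpoint that holds anaphase until all chromosomes are attached, Bub1 had 1.83 and 2.86, Mad2l1 1.69 and 2.21, and Cdc20, the activator that the checkpoint restrains, 1.93 and 2.90. Pttg1 (securin, the inhibitor of separase) was the exception, with 45.2 and 28.7 CPM in cycling cells and 44.5 and 43.6 CPM in the others.

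Genes that shape the chromosomes were higher as well, 10 of 16 past 2-fold in both libraries. Hmgb2 rose to 2990.01 and 2716 CPM, from 1220.42 and 759 CPM in other cells. Smc2 and Ncapd2, subunits of condensin, had log2 ratios of 1.34 and 2.31, and of 1.32 and 2.41. H2ax, the histone variant that marks DNA breaks, had 1.91 and 2.55, and Tuba1b, an α-tubulin, 1.499 and 2.31. Stmn1 (stathmin, which takes microtubules apart) stood just short of 2-fold in the library labelled Pdcd1fl/fl, 0.96, and at 2.12 in the other.

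Of 16 cyclins and kinase partners 7 were past 2-fold higher in both libraries and 1 lower. Ccnb1 and Ccnb2, the B cyclins that pair with Cdk1 in mitosis, had log2 ratios of 2.07 and 2.85, and of 1.39 and 2.75, and Ccnf, a cyclin that is part of a ubiquitin ligase, 3.96 and 2.65. Ccne2, an E cyclin of S-phase entry, gave -0.12 and 2.38, unlike in the 2 libraries. Ccnd2, the D cyclin that growth signals induce, was the lower gene (75.8 and 96.1 CPM against 197 and 262 CPM), while Ccnd3, the D cyclin required for expansion of immature thymocytes, had 197 and 148 CPM against 181 and 184 CPM. Cks1b and Cks2, small partners of the cyclin-dependent kinases, had 1.35 and 2.41, and 1.20 and 1.27. Among the brakes, Cdkn3 and Pkmyt1 were past 2-fold higher in both (1.06 and 1.47, 1.31 and 1.78); these are a phosphatase and a kinase that restrain Cdk1, and both are themselves transcribed in dividing cells. Cdkn1b (p27, the inhibitor of resting lymphocytes) had -0.48 and -0.83.

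S-phase genes differed less from the other cells than genes of mitosis, and differently in the libraries. Because the rule holds genes of mitosis, this order is not read as a trait of the cycling cells. Of 20 origin-licensing and helicase genes, 2 were past 2-fold in both (Mcm10, which helps load polymerase at origins, 1.05 and 2.61, and Gmnn, geminin, which blocks renewed licensing, 1.09 and 2.42), although all 20 were above 0 in both. Their median was 1.72 for the library labelled Pdcd1 cKO but 0.58 for the library labelled Pdcd1fl/fl. Mcm5, a subunit of the replicative helicase, stood at 179 and 170 CPM in cycling cells but at 108 and 46.5 CPM in the others. Pcna, the sliding clamp of the polymerases, had the same pattern: 713 and 852 CPM in cycling cells, 418 and 273 CPM in the others. The levels in cycling cells were thus close, and those of the other cells were not.

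Fork and nucleotide genes followed. Of 30 fork genes 3 were past 2-fold in both, namely Rfc4 and Rfc5, subunits of the clamp loader (1.03 and 1.82, 1.03 and 1.73), and Dscc1, of an alternative loader (1.13 and 2.45). Lig1, the ligase that joins Okazaki fragments, had 0.91 and 2.30, and Clspn, which carries the replication checkpoint signal, 0.86 and 2.86. Of 20 nucleotide-synthesis genes 6 were past 2-fold in both. They include Rrm1 and Rrm2, the subunits of ribonucleotide reductase (1.15 and 2.34, 1.82 and 3.11), Tyms, which makes thymidylate (1.60 and 2.76), and Tk1, the thymidine salvage kinase (1.23 and 3.07). Of 16 repair genes 4 were past 2-fold higher in both and 14 above 0 in both (median 0.54 and 1.47). The 1 below 0 in both was Atm, the kinase that senses double-strand breaks (-0.94 and -0.17).

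Weighed within each cell, the S-phase lists gave more UMIs than the mitotic lists in nearly every thymus cell, cycling or not. In cells thinned to 3000 UMIs, the summed licensing, fork and nucleotide genes exceeded the summed spindle and kinetochore genes in 431 of 454 (94.9%) and 520 of 547 (95.1%) cycling cells. The same held in 452 of 462 (97.8%) and 1869 of 1967 (95.02%) other cells, so the lean is no trait of the cycling cells and no phase call. The reverse held in 17 (3.74%) and 24 (4.39%) cycling cells. Median S-phase sums were 28 and 29 UMIs in cycling cells, against 14 and 7 in the other cells, and median mitotic sums 10 and 9, against 2 and 1. Other cells of the library labelled Pdcd1fl/fl thus held more S-phase RNA than those of the library labelled Pdcd1 cKO.

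Of 19 genes of the E2F, Rb and DREAM group, 3 were past 2-fold higher in both libraries: E2f8, a repressor induced in S phase (1.63 and 2.67), E2f6, another repressor (1.16 and 1.06), and Foxm1, the activator of G2 genes (2.04 and 3.13, at 6.49 and 6.67 CPM). E2f1, the activator of S-phase genes, had 0.62 and 2.28, and Mybl2, which joins the MuvB complex to switch on G2 genes, 0.38 and 2.24. Rb1, the gatekeeper of S-phase entry, had 0.22 and -0.01, and Rbl2 (p130, its relative in resting cells) -0.60 and -0.70.

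Promoters of the rule genes are printed because these genes were counted together in the same cells, and their transcription is known to be timed through a CHR element (TTTGAA or TTCGAA) and CCAAT boxes. The 250 bases before the start of transcription come from RefSeq on GRCm38.p6, of which 5 of the 6 rule genes matched (all but Ccna2). Both motifs were searched on both strands, and the only overlap is in Ube2c, where CCAATTGG holds a CCAAT on each strand. CHR letters occur in 17.1% of the 32851 promoters of this length, CCAAT in 33.8% and both in 6.02%. Cdk1, Mki67, Top2a and Ube2c hold both, and Birc5 holds neither. Of 24 spindle promoters 41.7% hold CHR letters and 70.8% CCAAT, of 24 kinetochore promoters 20.8% and 66.7%, of 18 licensing promoters 27.8% and 66.7%, of 32 fork promoters 12.5% and 50%, and of 20 nucleotide-synthesis promoters 5% and 55%. A match of letters is a description and not a site. Capitals mark the motifs in either orientation in Cdk1 (chr10:69352913-69353162, minus strand), Top2a (chr11:99024190-99024439, minus) and Ube2c (chr2:164769679-164769928, plus), each from 5' to 3'.
Cdk1: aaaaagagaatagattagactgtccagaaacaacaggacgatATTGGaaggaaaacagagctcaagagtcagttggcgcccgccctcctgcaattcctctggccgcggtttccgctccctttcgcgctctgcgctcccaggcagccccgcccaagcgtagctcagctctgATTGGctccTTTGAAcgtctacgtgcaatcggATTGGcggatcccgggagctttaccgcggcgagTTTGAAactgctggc
Top2a: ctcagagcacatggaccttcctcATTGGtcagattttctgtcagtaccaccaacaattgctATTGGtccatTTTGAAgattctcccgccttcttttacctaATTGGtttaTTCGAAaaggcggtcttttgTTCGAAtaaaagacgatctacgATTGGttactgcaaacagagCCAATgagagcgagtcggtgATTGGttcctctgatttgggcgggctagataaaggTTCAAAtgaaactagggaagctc
Ube2c: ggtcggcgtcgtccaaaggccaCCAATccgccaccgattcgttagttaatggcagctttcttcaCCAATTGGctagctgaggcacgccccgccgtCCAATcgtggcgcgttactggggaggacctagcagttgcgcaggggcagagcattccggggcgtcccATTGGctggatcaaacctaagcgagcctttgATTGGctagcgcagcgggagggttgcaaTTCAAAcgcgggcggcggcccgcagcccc

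Histone RNAs of the replication clusters, which are made as DNA is copied, were higher in cycling cells: 38 of 63 past 2-fold in both libraries and 1 lower. Their median was 1.43 and 2.05. H2ac24, a core histone H2A gene and the most abundant of the list, stood at 160 and 370 CPM, against 57.5 and 81.5 CPM in other cells. H2bc14 (an H2B gene) had 1.95 and 2.85, and H3c3 (an H3 gene) 1.87 and 3.10. The lower gene was H1f2, a linker histone that resting cells also express (24.9 and 59.5 CPM against 54.0 and 138 CPM). Most of these RNAs lack a poly(A) tail, so a poly(A)-primed library counts an unknown part of them.

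None of 16 Myc, ribosome-assembly and transporter genes was past 2-fold in both libraries in either direction. Npm1 and Ncl, nucleolar proteins of ribosome assembly, had 0.55 and 0.97, and 0.57 and 0.92, whereas Myc itself had -1.06 and -0.67. Of 14 glycolysis genes 11 were above 0 in both and none past 2-fold in both (median 0.26 and 0.82), with Ldha, which makes lactate, at 0.73 and 1.53, and Tpi1, triose phosphate isomerase, at 0.70 and 1.64. Nuclear genes of oxidative phosphorylation had a median of 0.39 and 0.71, 88 of 103 above 0 in both and none past 2-fold in both. Cytosolic ribosomal proteins, among them Rpl41, Rps29, Rps14, Rpl13, Rplp1 and Rpl32 of the 10 most abundant genes, had a median of -0.08 and -0.23, and the former turns to 0.02 under median-of-ratios scaling. Ptma (prothymosin α, a nuclear protein of dividing cells) was the abundant gene that differed most, 6643 and 6246 CPM against 3703 and 2417 CPM.

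Genes of resting T cells were lower. Of 12 quiescence genes 9 were past 2-fold lower in both libraries, with a median of -1.31 and -1.19. Against noncycling cells with Dntt, 1 of 12 was so (-0.58 and -1.14). Noncycling here means only that a cell did not meet the rule, so such cells may include cycling ones. Klf2, the factor that holds naive T cells at rest and lets them leave the thymus, stood at 63.4 and 41.0 CPM against 270 and 281 CPM (-2.09 and -2.78). Btg1, an antiproliferative protein, had -1.85 and -2.64, and Slfn2, which keeps T cells quiescent, -2.40 and -2.81. Tsc22d3, a glucocorticoid-induced gene, had -1.75 and -2.32, and Foxo1, the factor that drives Klf2 and Il7r, -1.15 and -1.13. Bcl2, the survival factor of mature thymocytes, was 1 of 3 genes of its family of 10 past 2-fold lower in both (-1.32 and -1.57). Of all genes with at least 20 UMIs 8.59% were so. Pmaip1 and Bbc3, the death-promoting members Noxa and Puma, were the other members of the 3 (-1.55 and -1.33, -1.91 and -1.08). Against noncycling cells with Dntt, 0 of the 10 were past 2-fold lower in both. Of 7 p53-related genes Trp53inp1, a stress-induced target, was lower in both (-1.21 and -1.21), and Cdkn1a (p21) had -0.59 and -0.11.

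By stage markers, most cycling cells carried Dntt, a marker of immature thymocytes. At 3000 UMIs, Ccr7 was found in 17.2% and 11.5% of cycling cells and in 28% and 16.7% of noncycling cells with Il2ra. For Trac the shares were 16.5% and 12.8%, and 12% and 14.1%. Nkg7 was found in 25.8% and 19.6% of cycling cells, below the 48% and 39.6% of noncycling cells with Il2ra. Those cells are therefore no background for Nkg7, and nothing is read from this comparison about mature markers. Dntt, the enzyme that adds bases at T cell receptor joints in immature cells, stood at 535 and 504 CPM against 392 and 297 CPM in other cells. At least 2 Dntt UMIs were found in 326 (68.8%) and 374 (66.8%) cycling cells, against 37.3% and 25.9% of the others. At equal depth of 3000 UMIs, 69.4% and 64.2% of cycling cells had a Dntt UMI, against 23.8% and 19.2% of noncycling cells with Ccr7, the receptor of mature cells, where the gene should be off (median raw depths 6906 and 9040 against 3968.5 and 5694 UMIs). Noncycling cells with Il2ra had it as often or more often, 84% and 74.1%. Rag1, the recombinase, was found in 8.37% and 6.40% of cycling cells, against 10.8% and 1.67% of the Ccr7 cells, so in the library labelled Pdcd1fl/fl it was at background. Rag2 was found in 0.441% and 0.183%. Ptcra, the pre-T cell receptor α chain, stood at 31.7 and 20.01 CPM, against 26.4 and 19.7 CPM in other cells.

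Markers of the earliest stages were not higher. Il2ra (CD25), the receptor of early precursors, stood at 60.2 and 68.1 CPM in cycling cells and at 101 and 107 CPM in the others. At least 2 UMIs were found in 48 (10.1%) and 93 (16.6%) cycling cells, and in 57 (9.61%) and 278 (13.4%) of the less deeply read other cells. Hes1, a target of Notch, was level (433 and 375 CPM against 439 and 366 CPM). Of the 11 early genes measured, 3 were past 2-fold lower in both, against 8.59% of all genes with at least 20 UMIs. These were Cd44, the adhesion receptor (-1.88 and -2.19), Dtx1, a Notch target (-1.29 and -2.11), and Hhex, a progenitor factor (-2.92, interval -8.49 to 0.24, and -1.78, -3.32 to -0.50), whose 1 UMI in the library labelled Pdcd1fl/fl carries little weight.

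The labelled cell type is CD8+ T cells, but CD8 RNA was sparse in the cycling cells. Cd8b1 and Cd8a, the chains of CD8, stood at 113 and 83.5 CPM and at 56.9 and 45.1 CPM, against 297 and 420 CPM and 124 and 204 CPM in the other cells. At 3000 UMIs, Cd8b1 was found in 22.9% (19.1 to 27.1%) and 19.9% of cycling cells, and in 14% (5.82 to 26.7%) and 17.0% of noncycling cells with Il2ra. For Cd8a the shares were 13.7% and 11.0%, and 10% and 11.1%. The Il2ra cells also carried Nkg7, so they are no sure background for CD8. Free RNA was not measured, so its part in this share is not known. Cd4 had 3 UMIs and 7 UMIs in cycling cells. The word thymocyte fits Dntt and the T cell receptor β constant genes Trbc1 (1433 and 1421 CPM, against 1233 and 1208 CPM) and Trbc2 (2164 and 2029.53 CPM), and Cd3g, Cd3d and Cd3e, chains of CD3, were present at 968 and 749, 659 and 466, and 245 and 194 CPM. Trac, the receptor α constant gene that is expressed once the α locus has rearranged, was low: 69.6 and 52.7 CPM against 215 and 358 CPM. Of 9 double-positive markers 1 was past 2-fold higher in both libraries and 2 lower (Cd8a and Cd8b1), with a median of -0.60 and -0.63. Of all genes with at least 20 UMIs, 2.53% were higher and 8.59% lower, and nothing is read from counts of so few markers. Arpp21 had log2 ratios of 0.26 and 0.16, and Satb1, a chromatin organizer, -0.80 and -0.83. Trdc, the δ constant gene, was found in 38.8% and 36.9% of cycling cells at 3000 UMIs, against 13.8% and 7.87% of the Ccr7 cells and 50% and 36.3% of the noncycling Il2ra cells, and its γ partners Trgc1 and Trgc2 stood at 113 and 130 CPM and at 151 and 158 CPM.

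Splitting the cycling cells by raw Dntt and CD8 UMIs (at least 2 of each) gave 239 and 248 cells with Dntt alone, 87 and 126 with both, 46 and 34 with CD8 alone and 102 and 152 with neither. The groups differ in depth, with medians of 7630 and 12576, 8598 and 19857.5, 4802 and 6307, and 3986.5 and 4243.5 UMIs. Cells with CD8 alone carried the mature markers: Ccr7 at 317 and 559 CPM (36.3 and 19.0 CPM with Dntt alone), Trac at 309 and 547 CPM (40.7 and 24.1 CPM) and Nkg7, a granule protein of cytotoxic cells, at 278 and 343 CPM (96.8 and 73.0 CPM). They were 9.70% and 6.07% of cycling cells. Pcna, outside the rule, was at 583 and 632 CPM with CD8 alone and at 741 and 913 CPM with Dntt alone.

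Mature and effector genes were lower in cycling cells than in the others. Of 10 mature genes 9 were past 2-fold lower in both libraries, with a median of -1.87 and -2.71, against 8.59% of all genes with at least 20 UMIs. The count against noncycling cells with Dntt was 0 of 10 (median -0.56 and -1.21). Ccr7 stood at 67.2 and 47.0 CPM against 275 and 448 CPM, S1pr1, the exit receptor, at 26.7 and 20.6 CPM against 84.7 and 138 CPM, and Il7r, the survival receptor for interleukin 7, at 18.7 and 15.2 CPM against 64.2 and 103 CPM. Of 16 effector and innate-like genes 14 were past 2-fold lower in both, with a median of -2.19 and -2.93. The counts against noncycling cells with Dntt were 4 of 16 lower and 0 higher (median -0.74 and -1.42). Ccl5, a chemokine of effector cells, stood at 73.7 and 87.3 CPM against 569 and 1251 CPM, and Nkg7 at 107 and 70.8 CPM against 465 and 483 CPM. Gzma, a granzyme, was the 1 higher gene, 704 and 387 CPM against 344 and 136 CPM (1.03 and 1.51). Of 6 inhibitory receptors 1 was past 2-fold higher in both libraries and 2 lower (2.53% and 8.59% of all genes with at least 20 UMIs), with a median of -0.72 and -1.73. The higher gene was Havcr2 (TIM-3, 1.01 and 1.29), while Ctla4 had -0.72 and -0.89, and Pdcd1 -0.12 (interval -1.99 to 1.88) and -1.55 (-2.26 to -0.89). Id2, a helix-loop-helix inhibitor that promotes effector and innate fates, was the 1 of 14 T lineage factors lower in both (-1.34 and -2.05). This count is near the 8.59% of all genes with at least 20 UMIs, so nothing is read from it. Tcf7, which sets the T fate, had 0.33 and 0.61.

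Genes of connective tissue were among those with the lowest ratios of all genes, from few other cells. Dcn (decorin, a matrix proteoglycan) had 4 and 0 UMIs in cycling cells, against 298 UMIs in 12 other cells and 299 UMIs in 18 other cells, a log2 ratio of -6.82 (-8.71 to -5.45) and, against a floor of 3 counts, a ratio at least as low as -5.96. Igfbp5 and Igfbp6, which bind insulin-like growth factors, had 3 and 2 UMIs against 155 and 174, and 1 and 2 UMIs against 84 and 72. Mgp, a matrix protein, and C3, a complement protein, had log2 ratios of -5.43 and -4.02, and of -5.83 and -4.92. Atf3, a stress-induced factor, had -5.11 and -3.95, and S100a4, a calcium-binding protein of effector and stromal cells, -3.49 and -3.73. Klra3, a killer cell receptor, had 1 and 3 UMIs against 28 and 113, Ifit1bl1, of an interferon-induced family, 1 and 4 UMIs against 10 and 100, and Slfn1, a relative of Slfn2, log2 ratios of -3.41 and -3.73. Markers of other lineages differed in level in the cycling cells. Of 6 stroma genes the summed level was 2.08 and 1.23 CPM (Col3a1 the most abundant, Col1a1 and Lum at 0), against 158 and 33.0 CPM in the others. Of 6 natural killer genes it was 3.38 and 4.49 CPM (Klre1 the most abundant, Ncr1 at 0), of 7 macrophage genes 5.97 and 5.58 CPM (Cd68, with C1qa and C1qb at 0), of 6 granulocyte genes 0.260 and 0.408 CPM (Csf3r, with S100a8, S100a9, Elane and Prtn3 at 0) and of 6 erythroid genes 0.519 and 4.08 CPM (Hbb-bs the most abundant). Of 7 dendritic genes it was 22.3 and 27.9 CPM (H2-Ab1, with Siglech at 0), of 6 epithelial genes 8.05 and 10.3 CPM (Epcam, with Krt5 and Prss16 at 0) and of 5 endothelial genes 81.5 and 79.9 CPM (Pecam1, with Cldn5 at 0), against 79.2 and 65.3 CPM in the other cells. Of 7 B cell genes it was 170 and 130 CPM, against 125 and 90.2 CPM in the other cells, nearly all Ighm, an immunoglobulin gene transcribed in immature T cells too, with Ms4a1 at 0.

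Since the other cells hold many mature cells, the cycling cells were also set against the 221 and 538 other cells with at least 2 Dntt UMIs. Their median depths were 4183 and 6179.5 UMIs, and this choice was made after the data had been seen. These Dntt cells are called noncycling only because they did not meet the rule, and they may include cycling cells. Of all other cells thinned to 3000 UMIs, 24.7% (library labelled Pdcd1fl/fl) and 11.6% met the rule used for thinned cells. A Pcna UMI was found in 62.8% and 53.2%. Against the Dntt cells 188 of 9125 genes (2.06%) were past 2-fold higher in both libraries, of which 162 are among the 287. Lower were 200 (2.19%), of which 121 are among the 747. Past 2-fold higher were 23 of 24 spindle genes (median 2.01 and 2.33), 19 of 24 kinetochore genes, 31 of 63 histone genes, 2 of 20 nucleotide genes and none of the licensing and fork genes. Past 2-fold lower were 0 of 10 mature genes (median -0.56 and -1.21), 4 of 16 effector genes, 1 of 12 quiescence genes and 0 of 10 genes of the Bcl2 family. The cells compared were required to hold Dntt and the cycling cells were not, so nothing is read from Dntt or from the early markers that go with it. Nor is anything read from the counts of nucleotide, licensing and fork genes, since the cells compared may include cells in S phase.

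Between the libraries, cycling cells differed in mitochondrial, histone and scattered other genes. Of 8076 genes with at least 100 UMIs in cycling cells, 154 (1.91%) were at least 2-fold higher in the library labelled Pdcd1 cKO and 135 (1.67%) at least 2-fold lower, and the median of all genes was -0.04. In the other cells of the same libraries, 54 of the 154 genes and 81 of the 135 were past 2-fold in the same direction, and 125 and 127 had the same sign. With at most 10% mitochondrial UMIs and at least 1000 genes and 2000 UMIs required of every cell, 92 genes were higher, of which 84 are among the 154, and 142 lower, of which 112 are among the 135, and the median of all genes was -0.12. Without the cells of 16000 UMIs or more, 604 genes were higher and 266 lower, with 71 of the 154 and 68 of the 135 called again. None of the 181 such cycling cells of the library labelled Pdcd1 cKO had more than 10% mitochondrial UMIs, so leaving them out changes depth and RNA quality together.

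**Figure D3:**
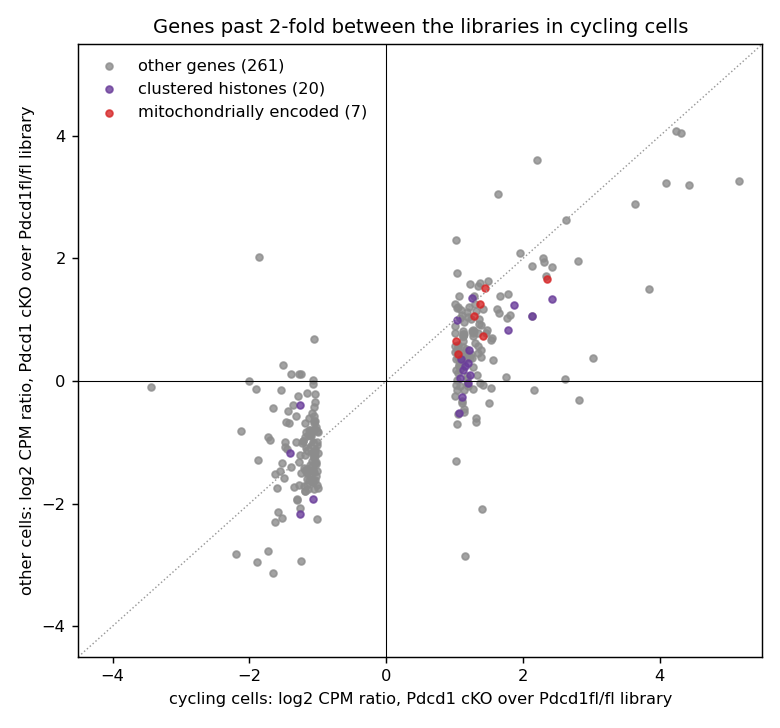
Log2 CPM ratio of the library labelled Pdcd1 cKO over the library labelled Pdcd1fl/fl in cycling cells (horizontal axis) and in other thymus cells (vertical axis), 1 point per gene past 2-fold in cycling cells with a value in other cells; the dotted line marks equal ratios. Of the 154 higher genes 125 lie above 0 in other cells, and of the 135 lower genes 127 lie below.

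Several of the largest ratios rested on very few cells. Atpaf1, an assembly factor of ATP synthase, had 770 UMIs in cycling cells of the library labelled Pdcd1 cKO, of which 584 lay in 1 cell, and without the top cell of each library its log2 ratio went from 2.82 to 0.88. Smyd1, a muscle methyltransferase, had 78 of 109 UMIs in 1 cell (3.03, and 1.70 without), 1700001D01Rik had all of its 169 UMIs in 1 cell, and Ctnna2, a neuronal catenin, had 193 of its 217 UMIs in 1 cell of the library labelled Pdcd1fl/fl (-3.44, and -0.39 without). In all, 1 cell held more than 50% of the gene's UMIs for 8 of the 154 and 3 of the 135 genes, and without the top cells 146 and 116 were past 2-fold.

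The other leading genes were less concentrated. Gm37401 (6 and 409 UMIs, in 5 and 234 cells, log2 5.16), Gm48099 (4.43), Gm13256 (4.08) and Gm50021 (63.4 and 790 CPM, 3.64) are long noncoding genes. Lepr, the leptin receptor, had 4.32, with 4.05 in other cells, Pde4a, a cyclic AMP phosphodiesterase, 4.24, with 4.09, and Cxcl10, an interferon-induced chemokine, 3.84, with 1.51 (35 of its 109 UMIs in 1 cell). Among lower genes, Bmerb1 stood at 157 and 34.4 CPM (-2.19, with -2.82 in other cells), and Ccnb1ip1, a ubiquitin ligase named for cyclin B1, at 56.9 and 15.4 CPM (-1.89, with -2.96). Fcsk, a fucose kinase, had -2.12, Tpcn2, an endolysosomal channel, -1.90 (40 of 94 UMIs in 1 cell), Gm20743 -1.87 and Gm49313 -1.73. Dapl1 was lower in cycling cells (-2.01) and level in the others (0.00), and 4931415C17Rik went the other way there (-1.86 and 2.03).

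Mitochondrially encoded genes were higher in cycling cells of the library labelled Pdcd1 cKO: 7 of 13 past 2-fold, against 5.07% of all genes with at least 20 UMIs, with a median of 1.02. The cells with more than 10% mitochondrial UMIs were more frequent in the same library (29.1% against 3.38% of cycling cells); under the stricter cell filter the median was 0.71 with 4 of 13 past 2-fold, and in other cells it was 0.44. The genes did not move as a block. mt-Nd3, a subunit of complex I, stood at 558 and 2857 CPM (2.36, and 2.05 under the stricter filter), and mt-Nd5 and mt-Nd1, of the same complex, at 150 and 401 CPM and at 2537 and 5233 CPM. mt-Atp6, of ATP synthase, had 0.69, mt-Co2 and mt-Co3, of cytochrome oxidase, 0.38 and 0.05, and mt-Co1, of the same enzyme, -0.03.

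Nuclear genes of oxidative phosphorylation went the other way, 92 of 102 below 0 with a median of -0.45. Past 2-fold lower were 5 of 102, against 3.25% of all genes with at least 20 UMIs. Ndufc1, Ndufb8 and Ndufs7, subunits of complex I, had -1.10, -1.05 and -1.06, and Uqcr11, of complex III, fell from 932 to 443 CPM (-1.07). In other cells the median was -0.71, and under the stricter filter -0.41. Cox7b, of cytochrome oxidase, was among the few above 0 (0.32). Cytosolic ribosomal proteins had a median of 0.28, with 2 of 78 past 2-fold higher and 1 lower (5.07% and 3.25% of all genes), and 0.41 in other cells.

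Of 62 histone genes with at least 20 UMIs, 18 were past 2-fold higher and 8 lower, against 5.07% and 3.25% of all genes with as many. With at least 100 UMIs the counts were 16 and 4. Among linker histones, H1f4 had 19.2 and 104 CPM (2.43), H1f3 7.01 and 30.8 CPM (2.13), H1f5 31.9 and 110 CPM (1.78) and H1f1 5.97 and 21.8 CPM (1.87). H1f2, the linker histone given above, was also higher in the library labelled Pdcd1 cKO, in cycling and in other cells. H2A genes such as H2ac24 (1.21) and H2ac23 (1.09) were higher, and the H2B genes H2bc14 and H2bc11 lower (-1.26 and -1.07). These ratios were as large under the stricter filter, with 19 higher and 8 lower, and in other cells H1f4 had 1.34 and H2ac24 0.50.

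Cell-cycle genes were close in the cycling cells of the libraries. The same threshold on cell-cycle RNA admitted the cells of both, and the part of this choice in the closeness was not tested. No gene of the licensing, fork, nucleotide, kinetochore, condensation or cyclin lists was past 2-fold, and their medians ran from -0.15 to 0.09. Past 2-fold were Plk1 (48.0 and 23.0 CPM, -1.06, and -0.98 under the stricter filter), Bard1, the partner of Brca1 (10.1 and 24.5 CPM, 1.28, and 1.07), E2f3, an S-phase activator (27.0 and 55.5 CPM, 1.04, and 0.86), and E2f7, a repressor (5.45 and 11.0 CPM, 1.02, and 0.74), each with the value under the stricter filter last, where Bard1 alone of these was past 2-fold. In other cells the same lists had medians from -0.64 to -1.06. Thus Mcm5 had -0.08 in cycling cells and -1.21 in the others, Tyms -0.44 and -1.60, and Ccnb1 -0.73 and -1.51. Clspn had 0.98, and 0.66 under the stricter filter.

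Mature and effector genes differed less in cycling cells than in the others, while other stage lists had medians near 0 in both or, for Dntt, Rag1 and Ptcra, -0.52 and -0.42. Mature genes had a median of -0.34 in cycling cells and 0.70 in other cells, and effector genes -0.20 and 1.24. Ccr7 thus had -0.52 (-0.75 to -0.28) and 0.70, and Trac -0.40 and 0.73. Both signs in cycling cells depended on depth. From 1000, 4000, 8000 and 16000 UMIs up, Ccr7 stood at 171, 70.4, 54.2 and 43.9 CPM in the library labelled Pdcd1fl/fl. The library labelled Pdcd1 cKO had 66.9, 47.7, 113 and 27.2 CPM. Trac stood at 204, 72.9, 57.9 and 29.3 CPM, and at 102, 69.7, 106 and 31.0 CPM. Dntt had -0.09 (-0.17 to -0.01) in cycling cells. Among the T lineage factors, Id3, a helix-loop-helix inhibitor induced by receptor signals, was past 2-fold higher (25.2 and 60.9 CPM, 1.27, and 1.33 under the stricter filter), and of the early genes Kit, the stem cell factor receptor (3.89 and 10.2 CPM, 1.39, and 0.96), and Mef2c, a factor of early precursors (1.56 and 7.08 CPM, 2.18, interval 0.97 to 3.69, and 2.96). Bad, a death-promoting member of the Bcl2 family, was lower (61.5 and 24.8 CPM, -1.31, and -1.28), as was Gzmm, a granzyme (5.71 and 1.91 CPM, -1.58, interval -2.66 to -0.55, and -1.65). The 1 effector gene past 2-fold higher was Prf1 (perforin, 3 and 20 UMIs, 1.81, interval 0.05 to 4.199, and 1.55 under the stricter filter). Gzma had -0.86 and Pdcd1 0.78 (-0.48 to 2.25).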

How the data were processed

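RNA of single cells was measured with PIPseq v3 in thymus, spleen and tumor libraries; only the 2 thymus libraries enter the comparisons, and spleen and tumor cells only the share under the same rule. The authors deposited raw UMI counts per gene and barcode, aligned to GRCm39, with 1067 and 2674 thymus barcodes. The cell filter left 1067 and 2635 of them.

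Counts were pooled over the cells of a group and given as counts per 1000000 UMIs (CPM), with exact Poisson intervals, exact Clopper-Pearson intervals for shares, and exact conditional binomial intervals for log2 ratios. A gene is called at a log2 ratio of at least 1 in either direction (in both libraries for cycling against other cells) with at least 100 UMIs, and a list member is measured from 20 UMIs. A 0 was set against a floor of 3 counts. Doublets were called with scrublet and kept. The code was tested on simulated data. Named are Pdcd1, the 6 rule genes, members of the gene lists (in long lists those with the most UMIs and the largest and smallest ratios), the 10 largest and 10 smallest ratios of each comparison and the 10 most abundant genes. Some of these genes are not reported here, and they are left out of the results given for a closer look. Cells, gene lists and rule were chosen with earlier results of these data known. Alternatives were the rule sum, the scaling, the UMI minimum, cells weighted equally, the cell filter, doublets and the cells compared with. The Dntt comparison, the leaving out of top cells and of cells with 16000 UMIs or more, and the strict filter for named genes were chosen after seeing the data. Coordinates are from GENCODE on GRCm39 and promoters from RefSeq on GRCm38.p6. Tools were python 3.11.15, numpy 2.4.6, scipy 1.17.1, pandas 2.3.3, scanpy 1.11.5 and matplotlib 3.10.9.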

Additional observations from a re-analysis of the deposited data

Results flagged for a closer look

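In 10 genes the log2 ratio of cycling over other cells was past 2-fold in opposite directions in the libraries, of which 8 are given here. The values are given for the library labelled Pdcd1fl/fl first and the library labelled Pdcd1 cKO after it, and the difference was not tested. Without the cell with most of the gene's UMIs in each pool, only Smug1 of these 8 was past 2-fold in opposite directions.

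Smug1, a uracil-DNA glycosylase, had 1.72 (interval -0.51 to 4.95) and -1.32. Tmem170, a membrane protein, had -2.43 and 1.58, and -0.91 in the former library without the top cells, since 1 other cell held 66 of 92 UMIs. Arhgef40, a guanine nucleotide exchange factor, had -1.81 and 1.91, and -0.50 in the former without the top cells, with 37 of 51 UMIs in 1 other cell. A930014D07Rik had -1.43 and 2.07, and without the top cells -0.21 and 0.86. Smyd1 had -1.12 (-2.75 to 0.43) and 1.55, the latter -0.19 without the top cells, and Tbc1d30, which acts on Rab proteins, -1.34 (-3.08 to 0.26) and 1.06, the latter -1.72. Gm973 had -1.28 and 1.00, the latter 0.15 without the top cells, and 1700120C14Rik -1.19 and 1.06, and then -0.92 and 0.97.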

How the results depend on the processing

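The sign of the difference in shares was the same in every alternative, but its size and the gene counts moved; the cause was not tested. The share of cycling cells, 44.4% and 21.3%, was 57.0% and 28.7% at a sum of at least 3, 26.2% and 13.9% at 10, and 59.2% and 28.5% in thinned cells. It was 44.5% and 17.5% under the strict filter, and 42.9% and 15.5% without cells of 16000 UMIs or more.

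Genes higher in cycling cells, 287, were 438 at a sum of 3, 174 at 10 and 188 against the Dntt cells. Genes lower, 747, were 1236 with at least 20 UMIs, 472 against deeper other cells, 200 against the Dntt cells and 486 without the cells of 16000 UMIs or more. In the library labelled Pdcd1 cKO, the 154 higher genes were 601 at 20 UMIs, 55 at 300, 419 with cells weighted equally, 92 under the strict filter and 604 without the deepest cells. The 135 lower genes were 385, 59 and 219 in the first 3 of these, 266 without the deepest cells and 79 with totals that leave out mitochondrial, ribosomal and Malat1 UMIs. Higher genes were 53.3% of those called between the libraries, 73.7% with these totals, 65.7% with equal weights, 69.4% without the deepest cells and 39.3% under the strict filter. For cycling against other cells they were 27.8%, and 41.3% at a sum of 3, 48.5% against the Dntt cells and 18.0% at a sum of 10.

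Named genes and list medians were recomputed with equal weights, median-of-ratios scaling, a sum of 10 and, between libraries, the strict filter. Of 3708 gene values 3017 stayed within their interval, 691 moved, 3521 had the same sign, and none past 2-fold changed sign. Of 337 list medians 312 stayed, 25 moved and 308 had the same sign. No paired analysis was possible because each genotype has 1 library, so a pair leaves no replicates.

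These results rest on 1 mouse per genotype, so a difference between mice, preparations or sequencing cannot be told apart from one of genotype. The chosen cells depend on a raw count and so on depth, and the rule genes cannot test it. Pdcd1 counts from a 3' tag cannot check the deletion. Free RNA was not removed, protein was not analysed here, and no cell-cycle phase was called.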
